A study of Homo sapiens with 11 samples.

Results

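The regions described here are 8371 narrow m6A peaks that the lung cancer cell lines A549 and H1299 have in common. Members were selected on the width and overlap of peaks: a region entered when its peak from A549 immunoprecipitation 1 was under 1000 bp wide and overlapped by 1 bp or more a peak of A549 immunoprecipitation 2 and a peak of H1299. The 8371 regions were 35.4% of the 23633 narrow peaks and 33.4% of all 25074 peaks of A549 immunoprecipitation 1. Width in immunoprecipitation 1 and presence in the other lists chose the members, so these values are given as a description with no test. The scores of the overlapped peaks, the widths in the other lists and the positions were not part of the rule. The 8371 regions are a count of positions. Some members far apart on chromosome 1 had the same width in immunoprecipitation 1 and the same score and width in immunoprecipitation 2. Whether such members are separate signals or copies of 1 signal was not tested, and each was counted as a region.

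Fragmented poly(A) RNA was captured with an antibody against m6A, in 2 immunoprecipitations from A549 cells and 1 from H1299 cells. The labels name no genetic change or treatment of the cells used for immunoprecipitation, and do not say whether both A549 samples came from separate cultures. A549 is a lung adenocarcinoma line and H1299 a non-small cell lung cancer line that lacks p53; both are single established lines, so a difference between them is a difference between these lines. The series also holds RNA-seq of cells with an shRNA against METTL3 (2 libraries a line) or against GFP (1 a line), used here for a check of the cell type, and 2 input samples that were not analysed here.

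N6-methyladenosine (m6A) is the most abundant internal modification of messenger RNA. A complex built on METTL3, the catalytic subunit, and METTL14 writes it in the nucleus, mostly at adenosines within the DRACH sequence motif, and reader proteins of the YTH family bind it and act on splicing, translation and decay. In mammalian messages it is known to gather near stop codons, in 3′ untranslated regions and in long internal exons. Antibody pulldown followed by sequencing finds the stretch of RNA around a modified base, so that a peak is wider than the site and may hold several.

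The lists differed in size and in how wide their peaks were. A549 immunoprecipitation 1 had 25074 peaks over 9.09 Mb, immunoprecipitation 2 had 26644 peaks over 8.77 Mb, and H1299 had 39235 peaks over 42.0 Mb. The median width over all peaks was 224, 216 and 795 bp in the same order. The deposited lists hold no read counts, so the depth is unknown. The authors' score of a peak was 0 throughout immunoprecipitation 1, began at 50 in immunoprecipitation 2 and at 50.01 in H1299, and stood at exactly 3100 for 15 and 264 peaks of those lists. The scale of the score is not stated, and a score is compared only within a list. Strong and weak below mean a high or a low score in that list, not an amount of m6A. Epithelial markers fitted the label in A549, where all 6 stood at 1 or more in each of the 3 RNA libraries. In H1299 4 of 6 did. In its shGFP library the keratins KRT18, KRT8 and KRT7 stood at 1364, 161.2 and 30.6, and CDH1 at 1.0. The epithelial adhesion protein EPCAM stood at 0.4 there, against 22.6 in A549 shGFP cells, and the keratin KRT19 was listed at 0. The mesenchymal filament gene VIM stood at 7562 in A549 and 14995 in H1299 shGFP cells, in tables scaled separately. Of the other mesenchymal markers, CDH2 stood at 200 and 438 in the same order. ZEB1 went the other way, at 47.6 in A549 and 32.7 in H1299. Of 4 lung alveolar markers, 2 stood at 1 or more in A549 shGFP cells (the surfactant gene SFTPB at 11.6 and the protease NAPSA at 7.11) and 3 in H1299 shGFP cells (SFTPB at 3.7, the lung transcription factor NKX2-1 at 1.4 and NAPSA at 1.2); the surfactant gene SFTPC was listed at 0 in both. Of the leukocyte markers, the lysosomal gene CD68 stood at 158 in A549 and 236 in H1299 shGFP cells, and PTPRC at 0.26 and 0.2. The endothelial marker PECAM1 stood at 16.6 in A549 and 8.4 in H1299 shGFP cells, and CDH5 at 1.84 and 0.2.

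Presence in the other A549 list followed the width of a peak closely, and presence in H1299 did not. Of the narrowest peaks, 66 to 100 bp wide, 14.5% were members (95% exact binomial interval 13.4 to 15.7%), 28.1% overlapped immunoprecipitation 2 and 35.7% overlapped H1299. Of peaks 201 to 300 bp wide, 42.0% were members, with 65.6% in immunoprecipitation 2 and 64.7% in H1299. Of peaks 501 to 750 bp wide, 53.9% were members, the highest share of any class; 95.05% were in immunoprecipitation 2 but 55.8% in H1299. At 751 to 999 bp the members were 45.6% (42.8 to 48.5%), with 97.5% in immunoprecipitation 2 and 46.3% in H1299. The share in the second A549 list was thus higher in each wider class, while the H1299 share was highest at 201 to 300 bp and lower on either side. Wide peaks, of 1000 bp or more, overlapped H1299 in 46.8% of cases (44.2 to 49.4%). These intervals cover counting error only and treat peaks as independent; with 1 H1299 list there is no replicate check of the H1299 share.

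**Figure D1:**
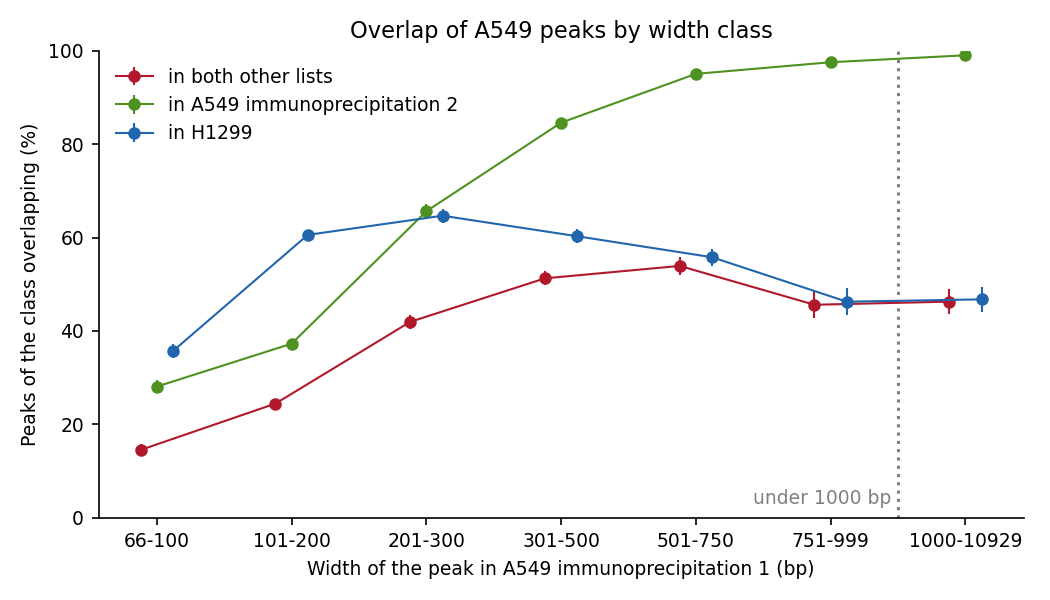
Share of A549 immunoprecipitation 1 peaks (%) that overlap both other lists, A549 immunoprecipitation 2 or H1299, by width class in bp; bars are 95% exact binomial intervals and the dotted line is the width limit of the rule. The share in immunoprecipitation 2 goes up to 99.03% in the widest class, while the H1299 share is highest, at 64.7%, among peaks of 201 to 300 bp.

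Over all narrow peaks, those found again in A549 were also found more often in H1299. The margin depended on width and was not seen in every class. Of 14022 narrow peaks that were in both A549 lists, 59.7% (58.9 to 60.5%) also overlapped H1299, which gives the 8371 members. Of 9611 narrow peaks absent from immunoprecipitation 2, 51.0% (49.97 to 52.0%) overlapped H1299. These pooled shares mix widths, since the peaks absent from immunoprecipitation 2 were narrower, as the medians below show. The gap was largest among peaks of 66 to 100 bp, where 51.7% of those in immunoprecipitation 2 and 29.5% of those absent from it overlapped H1299. At 501 to 750 bp the shares were 56.7% (54.9 to 58.6%) and 37.6% (29.6 to 46.1%), and at 751 to 999 bp 46.8 and 26.7%, although few peaks of these widths were absent from immunoprecipitation 2. Among peaks of 201 to 300 bp the shares were 63.9 and 66.1%. At 301 to 500 bp, a class with 2169 members, they were 60.6% (59.0 to 62.2%) and 58.5% (54.6 to 62.3%). In both of these classes the intervals overlapped. The median width was 306 bp for the members, 351 bp for the 5651 narrow peaks of both A549 lists that were not in H1299, 165 bp for the 4899 in H1299 but not in immunoprecipitation 2, and 125 bp for the 4712 in neither.

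In A549 the members and the narrow peaks found in A549 alone had nearly the same median score. The members had a median immunoprecipitation 2 score of 111.4, with the middle 50% of values between 75.4 and 185.9. The 5651 narrow peaks of both A549 lists that were not in H1299 had a median of 111.1 and a middle 50% between 75.5 and 186.1. Split into 10 equal classes by that score, between 58.1 and 61.4% of the 14022 peaks overlapped H1299. The lowest class had 59.9% (57.3 to 62.5%) and the highest 61.4% (58.8 to 63.9%), so that the intervals of the weakest and the strongest peaks overlapped.

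Within width classes the members had the higher median score in each of the 6 narrow classes, and the difference depended on the class. From 201 bp upwards, wider classes had higher scores and a lower H1299 share. Among peaks of 751 to 999 bp, those at or above the median score of the class overlapped H1299 in 55.2% of cases (51.1 to 59.2%), against 38.3% (34.4 to 42.4%) of those under it. Peaks of 301 to 500 bp had 63.4% (61.1 to 65.6%) and 57.8% (55.5 to 60.1%) in the same order. Peaks of 101 to 200 bp had 65.8 and 65.4%, and in this class the score made no difference that the counts could show. At the widest narrow class the members' median score was 276.7, against 213.3 for peaks of A549 alone.

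In both other lists the peaks that a member overlapped had higher scores than the rest of the list. In immunoprecipitation 2 the 9129 peaks overlapped by a member had a median score of 106.1, against 77.4 for the other 17515. In H1299 the members overlapped 6126 peaks, 15.6% of that list, and those peaks had a median score of 454.7 against 255.9 for the other 33109. Such scores were not particular to the members. Counted per A549 peak, the median H1299 score was 645.2 for the members, at a median H1299 width of 1461 bp. For the 4899 narrow peaks in H1299 but not in immunoprecipitation 2 it was 579.8, at 1506 bp. Of the H1299 peaks in the highest of 10 score classes, 46.9% (45.3 to 48.5%) held a member. The share was 20.04% in the next class and lowest, 8.49% (7.63 to 9.40%), in the fourth class from the bottom. It was higher again, 15.0% (13.9 to 16.1%), in the class with the lowest scores. The highest class was also the widest, with a median of 2227 bp against 630 bp in the lowest, and the part of width in these shares was not tested. Among immunoprecipitation 2 peaks the share overlapped by a member was 19.1% in the lowest class and 50.3% in the ninth. It was 38.9% in the highest class, whose median width was 781 bp against 141 bp in the lowest.

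**Figure D2:**
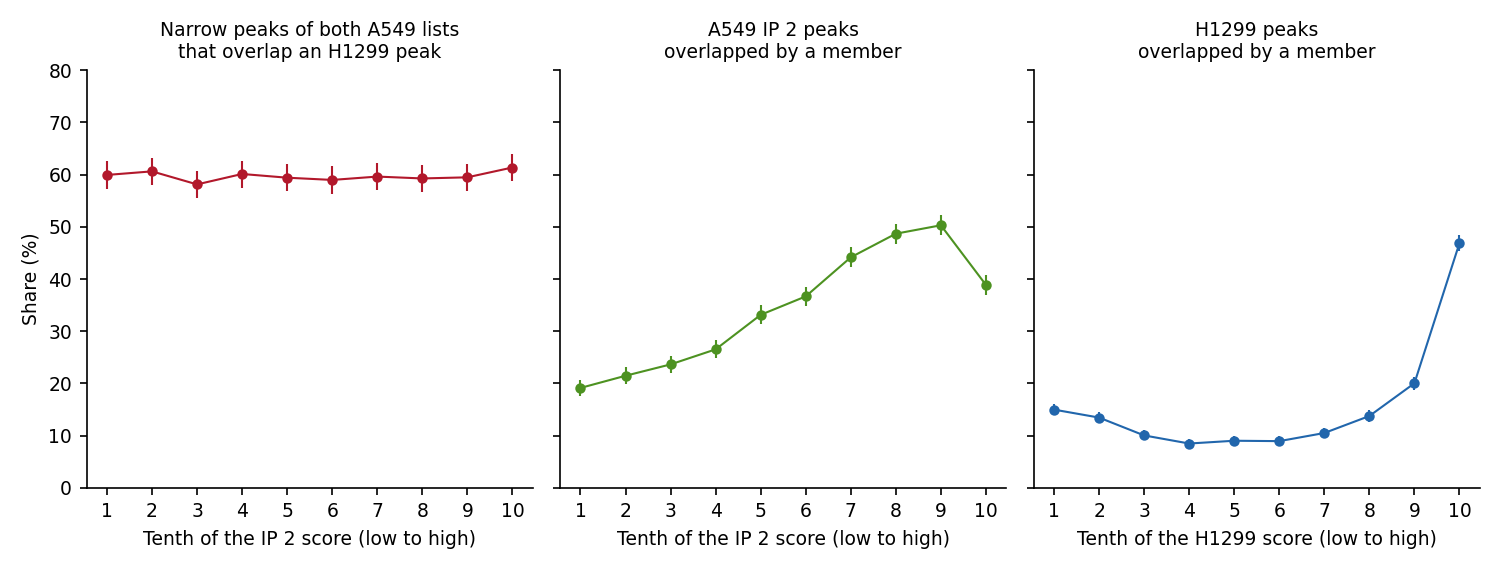
Shares (%) by classes of equal size from low to high score, with 95% exact binomial intervals: narrow peaks of both A549 lists that overlap H1299, all A549 immunoprecipitation 2 peaks overlapped by a member, and all H1299 peaks overlapped by a member. The first stays between 58.1 and 61.4%, while the H1299 share reaches 46.9% in the class with the highest scores.

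The score of a member in A549 said little about its score in H1299. Over the 8371 members Spearman's rho between the scores was -0.02, a description with no test, since members share immunoprecipitation 1 as their source and many share an H1299 peak. It was 0.05 over the 4477 members that were alone in their H1299 peak. The H1299 scores were spread widely, with a median of 645.2, a middle 50% between 221.3 and 1607, and 489 members in a peak of exactly 3100. A total of 1064 members were in the top 10% of immunoprecipitation 2 scores and 3346 in the top 10% of H1299 scores, with 346 in both.

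**Figure D3:**
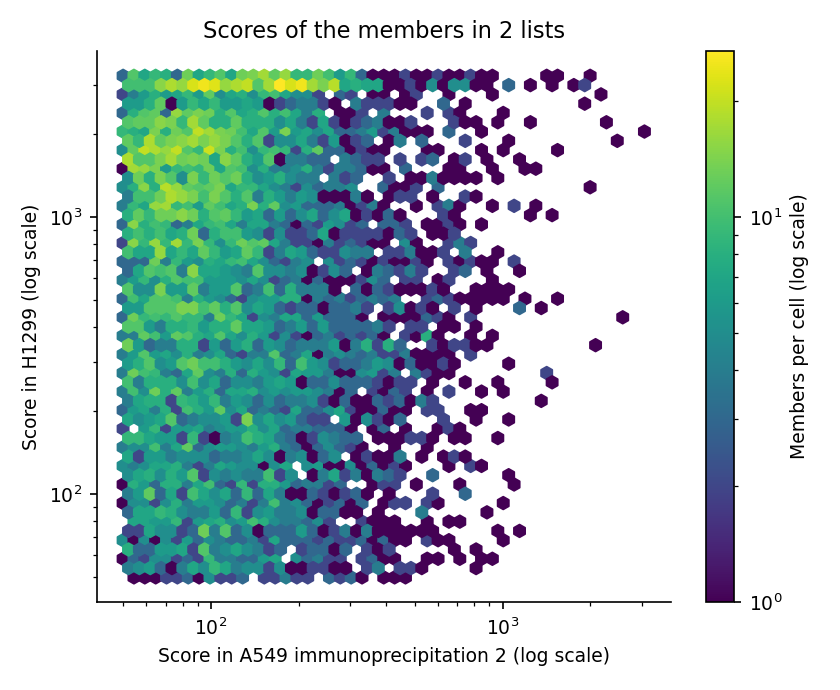
Score of each of the 8371 members in H1299 against its score in A549 immunoprecipitation 2, both on log axes, with colour for the number of members per cell. Members with low A549 scores are found at every H1299 score from 50.02 to 3233, and the row at the top includes the 489 members whose H1299 score is 3100.

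The members with the highest immunoprecipitation 2 scores ranged widely in H1299. The member at chr9:131938785-131939663 (hg19, as are all positions here) was 879 bp wide, with a score of 3066 in immunoprecipitation 2 and 2106 in H1299. At chr1:155161061-155161819 the scores were 2555 and 1861, and at chr19:3958462-3959440 they were 2134 and 2831. Those 3 regions were strong in both lines. The member at chr17:79218714-79219076 had a score of 2482 in A549 and 438.1 in H1299, and the member at chr15:66995892-66996229 had 2072 and 346.4. These were strong in A549 and under the members' median in H1299. Both were also much narrower in immunoprecipitation 1, at 363 and 338 bp, than in immunoprecipitation 2, at 1822 and 1661 bp. The same held at chr19:17837315-17837509, where a peak of 195 bp met a peak of 2134 bp and the scores were 2270 and 2160. A further pair reached 3100 in H1299, at chr1:245026910-245027799 with 2008 in A549 and at chr17:79478819-79479568 with 1880. The member at chr17:48226507-48227449 had 1980 and 2568, and the last of the 10, on chromosome 8, had 1996 and 1267.

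The members with the highest H1299 scores ranged from weak to strong in A549. Because of a tie there were 11, in only 6 H1299 peaks, and 4 of them were in the top 10% of immunoprecipitation 2 scores. The member at chr1:44069076-44069908 had an H1299 score of 3233 and an immunoprecipitation 2 score of 301.9. A single H1299 peak with the same score held the members chrX:71900601-71901047 and chrX:71902180-71902761, which had 127.5 and 149.1 in A549. On chromosome 3 a single H1299 peak of 2470 bp and score 3227 held 3 members, at chr3:183325300-183325743, chr3:183325794-183326036 and chr3:183326811-183327524. Their A549 scores were 86.8, 55.1 and 395.9, so that neighbours within 1 H1299 peak had unlike scores in A549. On chromosome 12 a peak of 1659 bp and score 3222 held members of 86, 237 and 471 bp, starting at chr12:1926679-1926764, with A549 scores of 91.0, 157.2 and 132.8. At chr16:28734471-28734900 the scores were 3228 in H1299 and 299.8 in A549. The strongest of the 11 in A549 was chr19:13054344-13055305, with 3228 and 929.6.

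The members were much narrower than the H1299 peaks around them. The median width was 306 bp in immunoprecipitation 1, 244 bp in immunoprecipitation 2 and 1461 bp in H1299. Every member overlapped exactly 1 H1299 peak, 86.6% lay wholly inside it, and the median member covered 23.4% of its width. Only 34 members were wider than their H1299 peak. Between the A549 lists the peaks matched closely: the median distance between centres was 22.5 bp, against 274 bp between the member and the H1299 peak. Both edges were within 25 bp of each other in 36.0% of members. Peaks of immunoprecipitation 1 tended to be the wider of the A549 pair, in 73.2% of members. Over all members, including those that were narrower, the median difference was 20 bp. Exactly 1 immunoprecipitation 2 peak was met by 89.4% of members, and for the rest only 1 of several was compared. Widths in both A549 lists ranked alike, with a Spearman's rho of 0.80 over the members as a description. Between widths in immunoprecipitation 1 and H1299 it was 0.24. Over the 4477 members alone in their H1299 peak the values were 0.87 and 0.39.

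**Figure D4:**
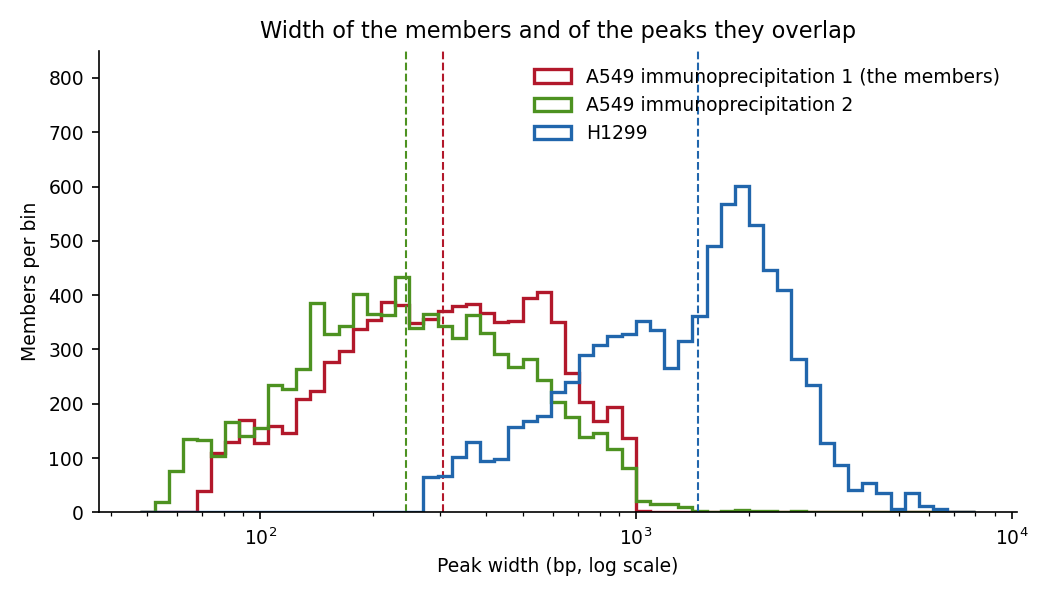
Number of members per bin of peak width (bp, log axis) for the members in A549 immunoprecipitation 1, and for the peaks they overlap in immunoprecipitation 2 and H1299; dashed lines are medians. The A549 medians are 306 and 244 bp, and the H1299 distribution lies to the right with a median of 1461 bp and its highest bins just under 2000 bp.

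The narrowest members had low scores in A549. The first 2, both 69 bp wide, were at chr2:33992536-33992604, with a score of 60.4 in immunoprecipitation 2 and 285.9 in H1299, and at chr7:91118434-91118502, with 53.0 and 162.7. Those of 70 bp at chr13:39743730-39743799, chr5:119408717-119408786 and chr7:36008144-36008213 had A549 scores of 57.2, 81.3 and 79.6. The 5 members just under the limit were 997 to 999 bp wide with A549 scores between 53.9 and 285.6, among them chr10:47134023-47135021 with 181.3. The 5 common peaks just over it were 1000 to 1002 bp wide with A549 scores between 352.7 and 1746. These ranges rest on 5 peaks a side, and whether scores step at the limit was not tested. Members of 751 to 999 bp had a median A549 score of 276.7, and a member of 979 bp had 2134.

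Many H1299 peaks held several separate A549 peaks. Of the 6126 H1299 peaks, 4477 held 1 member, 1172 held 2, 385 held 3 and 92 held 4 or more, so that 3894 members shared an H1299 peak with another. The H1299 peaks with a single member had a median score of 328.4 and a median width of 906 bp. Those with 2 had 1130 and 1849 bp, and those with 3 had 1825 and 2082 bp. A wider H1299 peak has room for more members, and the part of width in these H1299 scores was not tested. In A549 the median scores were 114.9, 109.6 and 105.7 for members alone, in pairs and in groups of 3. The split of an H1299 peak was seen in both A549 lists: of 2245 pairs of neighbours within an H1299 peak, only 103 (4.59%) met the same immunoprecipitation 2 peak. The median gap between such neighbours was 304 bp, and 28.2% of the gaps were 100 bp or shorter.

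The H1299 peak with the most members, 8, was at chr19:3979165-3983696, 4532 bp wide with a score of 3100. Its members were 172 to 547 bp wide and together filled 51.5% of it. Each met a peak of its own in immunoprecipitation 2. Their scores there, in order along the chromosome, were 256.7, 236.9, 191.5, 188.6, 154.1, 96.4, 65.6 and 216.6, so that the first member was the strongest and the seventh the weakest. The next, chr6:74226861-74230459, held 7 members with scores from 109.6 to 533.7, the strongest being the first at chr6:74227241-74227672. That member and its immunoprecipitation 2 peak began at the same base. An H1299 peak at chr2:178809425-178812535 held 6 members with A549 scores of only 61.0 to 145.1, although its own score was 3100. Immunoprecipitation 2 had 8 peaks there: the second member met 2 of them, and a peak at chr2:178811734-178811844 met none of the members. At chr22:39708888-39711826 there were 6 members of 102 to 328 bp with scores from 54.6 to 343.1. At chr17:79802749-79805480 there were 6 with scores from 59.6 to 220.9, in an H1299 peak of only 734.5. All 33 members of these 5 regions met different immunoprecipitation 2 peaks. Which exons these peaks lie in was not analysed here, since no annotation of the same genome build was used.

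**Figure D5:**
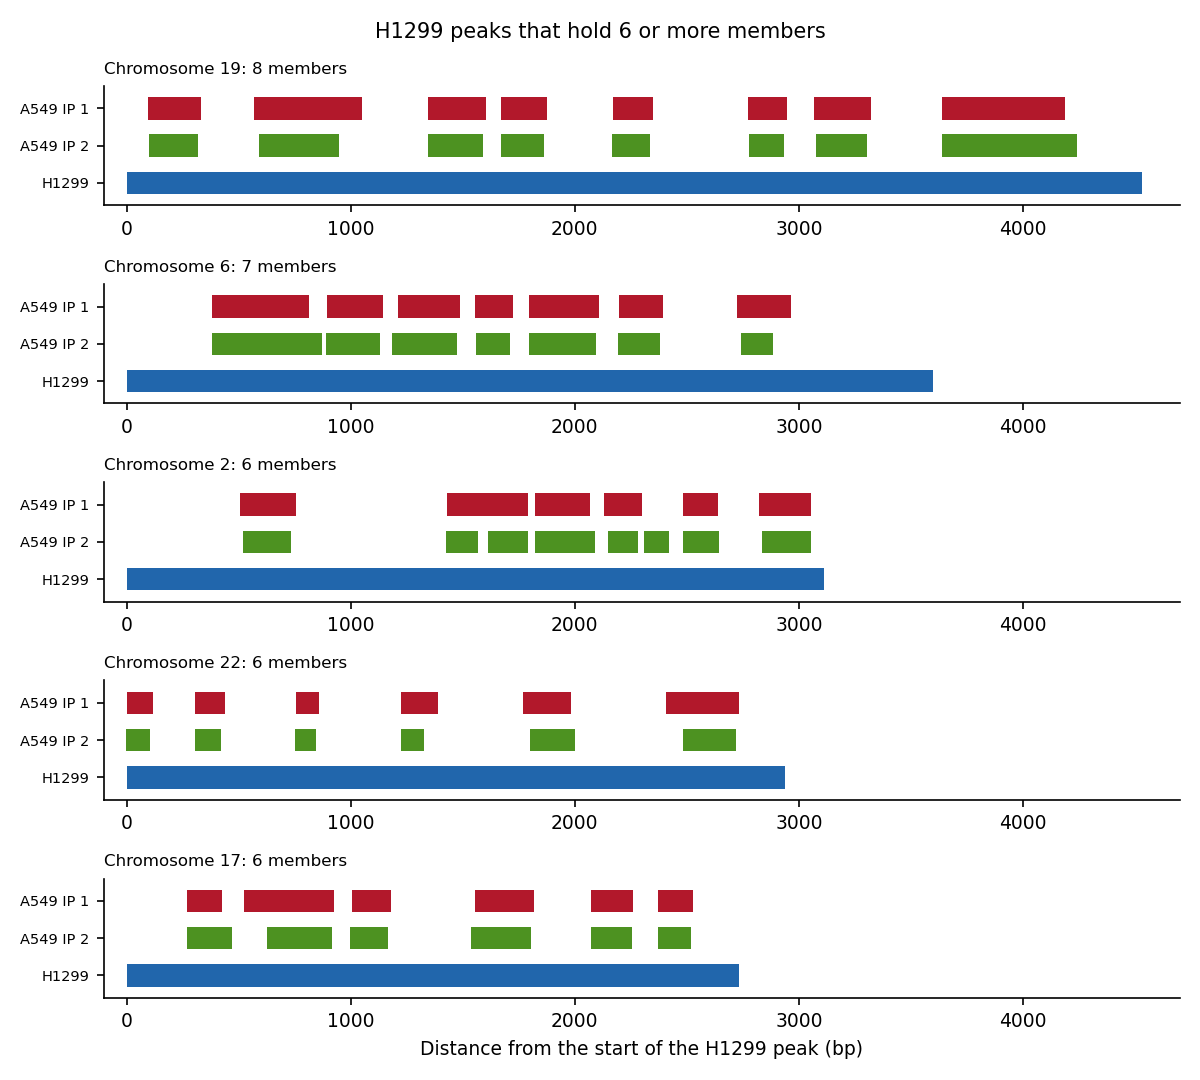
Maps of the 5 H1299 peaks that hold 6 or more members, drawn to scale as distance in bp from the start of the H1299 peak: A549 immunoprecipitation 1 members on top, A549 immunoprecipitation 2 peaks in the middle and the H1299 peak below. Each member meets an immunoprecipitation 2 peak at nearly the same place, and 1 H1299 peak spans them, 4532 bp long in the map of chromosome 19; on chromosome 2 immunoprecipitation 2 has 8 peaks beside 6 members.

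Members often lay close together. Of the 8371 members, 3704 (44.2%, interval 43.2 to 45.3%) had another member within 1000 bp. Of all 23633 narrow peaks of immunoprecipitation 1, 33.8% had another narrow peak within that distance, and of the 5651 narrow peaks of both A549 lists that were not in H1299, 22.6% (21.5 to 23.7%) had another of their kind. Presence in H1299 was part of the rule, so these shares are a description. For the members the median gap to the next was 56055 bp. They fell in 1922 windows of 1 Mb, of which 499 held a single member. The fullest window, chr19:39000001-40000000, held 42 members, which were 56.0% of its 75 narrow peaks. Next came chr16:30000001-31000000 with 32 members and chr11:65000001-66000000 with 31. In chr1:8000001-9000000, 27 of 34 narrow peaks were members.

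The share of narrow A549 peaks that were common differed between chromosomes. Members were 41.6% (39.3 to 44.0%) of narrow peaks on chromosome 19, 41.0% on chromosome 20 and 40.2% on chromosome 1. They were 21.4% (15.3 to 28.6%) on the Y chromosome, which had only 159 narrow peaks. On chromosome 4 they were 29.0% (26.2 to 31.8%) and on the X chromosome 30.4% (27.7 to 33.2%). Among narrow peaks in both A549 lists the order was otherwise. There the H1299 share was 44.98% (41.3 to 48.7%) on chromosome 16, 47.4% on chromosome 17 and 53.1% on chromosome 19. It was 77.3% (62.2 to 88.5%) on the Y chromosome, which had only 44 such peaks. Next came chromosome 18 with 72.0% (64.4 to 78.8%), chromosome 13 with 70.1% and chromosome 5 with 68.8%. On chromosome 19, 78.4% of narrow peaks were in both A549 lists. The share was 27.7% on the Y chromosome, 43.6% on chromosome 4 and 44.5% on the X chromosome.

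Chromosomes also differed in how strong the members were in each line. On chromosome 19 the members had a median score of 148.0 in immunoprecipitation 2 and 453.1 in H1299, and on chromosome 16 of 147.1 and 342.1. On chromosome 4 the medians were 89.6 and 907.8, and on chromosome 13 they were 98.2 and 1169. Members of chromosomes 16 and 19 thus stood above the members' median in A549 and below it in H1299, and those of chromosomes 4 and 13 the other way round. Over the whole H1299 list, with each peak counted once, the median score was 210.1 on chromosome 19 and 289.7 on chromosome 4. The members' medians count an H1299 peak once for each member in it, so these are unlike measures. Chromosome 19 held 8.31% of the members, 7.32% of the immunoprecipitation 1 list and 3.30% of the H1299 list. The X chromosome held 4.06% of the members, 4.59% of the immunoprecipitation 1 list and 7.06% of the H1299 list.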

How the data were processed

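Each deposited peak list holds positions and a score per peak from the authors' peak caller, and its peaks carry names beginning with MACS. The caller's version, thresholds, use of the input and any pooling are not given in the sources used here. TopHat, Bowtie and the hg19 build are named, without roles, per the submitters' processing notes. The RNA values are a signal that the authors scaled per library, on a basis that is not stated, and served only for the check of cell type markers. Positions follow hg19, counted from 1.

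Overlaps were computed in Python 3.11.15 with pandas 2.3.3, tested on simulated intervals with known overlaps and checked against bedtools 2.31.1. Where a member met several immunoprecipitation 2 peaks, the one with the longest overlap was used. Intervals are exact Clopper-Pearson intervals from scipy 1.17.1 at 95%. No test was run, because the rule used presence in all 3 lists, a line has 1 or 2 lists, and peaks are not replicates. Members named are the 10 with the highest score in each scored list, the 5 narrowest and the 5 on either side of the width limit. The regions with 6 or more members, the 1 Mb windows and the chromosomes named were chosen after their values were seen. The members and lists were chosen with earlier results of these data known. No genome or annotation of hg19 was used, so genes, sequence motifs and the RNA of marked genes, which the design had foreseen, are not reported.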

Additional observations from a re-analysis of the deposited data

How the results depend on the processing

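The count of 8371 members was 6267 at a width limit of 500 bp, 8919 at 2000 bp and 8285 with an overlap of at least 0.5 of the narrower peak, all within 1.5 times. It was 3957 when only peaks at or above the median score of their list counted. This cut removed no peak of immunoprecipitation 1, where every score is 0. Requiring 2 of the 3 lists gave between 13120 (immunoprecipitation 2 and H1299, without A549 immunoprecipitation 1) and 14022 (both A549 lists, without H1299); without immunoprecipitation 2 it was 13270. With H1299 peaks at or above the median score, 40.3% of narrow and 25.9% of wide peaks overlapped H1299, against 56.2 and 46.8%. Counting each overlapped peak once, an alternative chosen after seeing the data, gave medians of 106.1 and 230 bp in immunoprecipitation 2 and of 454.7 and 1116 bp in H1299 for score and width. The last values are lower than the medians over members, since the H1299 peaks with several members are wide and have high scores. Choosing the overlapped peak by score moved no median beyond its interval. No paired analysis was possible because no result comes from a test. Alternatives for motifs, annotated features and RNA were not run, for want of an hg19 genome. Depth is unknown, so an absent peak may have been missed.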
